A study of Homo sapiens with 4 samples.

Results

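Of the 5169 reproducible binding sites of MEIS proteins in human neural stem cells, 423 (8.18%) lay on chromosome 5, and these 423 sites are described here. They were chosen by chromosome from the list of sites found reproducibly in both replicates of a chromatin immunoprecipitation sequencing (ChIP-seq) experiment, so that the height and the reproducibility of the peaks were part of the choice and are given below as descriptions, without a test. The cells were untreated cultured human neural stem cells (hNSC), a commercial culture, so the results hold for that culture and not for a set of donors. MEIS ChIP was performed in 2 replicates, with 2 Input samples of sheared chromatin as the background for peak calling, on cell batches that were processed in parallel. The antibodies were a mixture of anti-MEIS1/2A (K830) and anti-MEIS1 (K844), and a peak therefore does not tell which of the MEIS proteins was bound. The peak lists give no read numbers, so the depth of the libraries is unknown from them, nor do they allow a check of the cell type against marker genes.

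MEIS proteins belong to the TALE class of homeodomain factors, which bind DNA around the short word TGACAG. They commonly bind together with PBX proteins, another TALE family, and the pair can occupy a longer composite word in which the MEIS core follows PBX letters of the type TGAT or TGAG. MEIS factors act in limb, heart, eye and nervous system development, and in neural tissue much of their binding falls away from promoters.

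The sites gathered in a few stretches of the chromosome and around a few genes. The 3 stretches of 5 Mb with most sites lay at ZNF608, which encodes a zinc finger protein, at EFNA5, which encodes ephrin-A5, a membrane-anchored axon guidance ligand, and at NR2F1, which encodes the orphan nuclear receptor COUP-TF1 of cortical patterning. ZNF608 was the nearest gene of 30 sites, EFNA5 of 20 and NR2F1 of 10. None of the 10 strongest sites had ZNF608, EFNA5 or NR2F1 as its nearest gene, and 9 of these 10 were more than 5 kb from the canonical transcription start site (TSS) of a protein-coding gene.

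The sequence at the summit of sites that carry these results is given for 81 bases of the plus strand of GRCh37, read from 5′ to 3′, with TGACAG or its reverse complement CTGTCA in capitals. The first set holds strong sites, to show that a core lay at the summit of most but not all of them. The sites at RANBP3L and ITGA2 had no core in the 500 bp around their summit, and the site at FBXL7 had a pair in opposite orientation. The third strongest site, in intron 12 of MCTP1, is not printed. It had no core within its 81 bases, the nearest being 43.5 bp from the summit.
RANBP3L site, chr5:36312238-36312318: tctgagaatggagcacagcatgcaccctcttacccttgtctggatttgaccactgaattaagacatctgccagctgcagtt
FBXL7 site, chr5:15495305-15495385: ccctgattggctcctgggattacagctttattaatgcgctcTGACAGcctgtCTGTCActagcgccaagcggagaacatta
ITGA2 site, chr5:52293484-52293564: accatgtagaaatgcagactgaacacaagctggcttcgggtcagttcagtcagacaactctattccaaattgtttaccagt
SEMA5A site, chr5:9452301-9452381: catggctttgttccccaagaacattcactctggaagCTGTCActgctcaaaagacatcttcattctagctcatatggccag
POU5F2 site, chr5:93157674-93157754: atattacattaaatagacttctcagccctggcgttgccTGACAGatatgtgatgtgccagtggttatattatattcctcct
PLK2 site, chr5:57368360-57368440: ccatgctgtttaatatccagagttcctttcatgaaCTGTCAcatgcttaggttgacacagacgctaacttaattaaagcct

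The second set holds strong sites with the composite word of PBX letters and the MEIS core, TGATTGACAG, which is in capitals as a whole.
TMEM232 site, chr5:109738476-109738556: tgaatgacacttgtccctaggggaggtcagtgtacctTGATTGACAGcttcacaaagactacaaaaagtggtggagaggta
IRX4 site, chr5:2206561-2206641: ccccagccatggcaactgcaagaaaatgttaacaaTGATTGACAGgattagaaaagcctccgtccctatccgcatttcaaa
ARRDC3 site, chr5:90928898-90928978: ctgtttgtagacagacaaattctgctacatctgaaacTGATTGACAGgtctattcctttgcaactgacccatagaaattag
SLF1 site, chr5:94227809-94227889: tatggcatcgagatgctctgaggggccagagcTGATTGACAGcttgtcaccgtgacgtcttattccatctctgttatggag

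The third set holds the site with the highest value on the lower of its replicates near each of ZNF608, EFNA5 and NR2F1, the genes that lead the fullest stretches. Of these, the ZNF608 site alone carried TGACAG within the 81 bases.
ZNF608 site, chr5:123998130-123998210: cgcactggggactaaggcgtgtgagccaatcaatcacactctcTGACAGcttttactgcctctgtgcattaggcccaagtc
EFNA5 site, chr5:106997283-106997363: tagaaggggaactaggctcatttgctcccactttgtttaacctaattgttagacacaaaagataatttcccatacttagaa
NR2F1 site, chr5:92935337-92935417: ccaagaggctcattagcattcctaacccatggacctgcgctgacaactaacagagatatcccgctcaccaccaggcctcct

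The height of a peak is given as the −log10 of the p-value that the peak caller MACS2 assigned to it, together with its fold enrichment over Input. Over the 423 sites the value kept for the site ranged from 12.6 to 1248, with quartiles of 20.1, 33.7 and 69.6. In replicate 1 the median was 38.6 (12.6 to 1495) and in replicate 2 it was 47.1 (15.6 to 1596). The value kept was the lower of the replicate values at 421 sites. The sites were 509 to 3909 bp wide, with a median of 1113 bp, and the summits of the replicates lay a median of 11.0 bp apart. Fold enrichment was higher in replicate 2 at 411 of the 423 sites, with a median ratio between replicates of 1.80, while the −log10 p was higher in replicate 2 at 274. The methods describe alternative bead washes, with and without LiCl, but not which replicate had which, and their part in this difference was not tested. Across the sites the order of the −log10 p values was similar in both replicates, with a Spearman coefficient of 0.793 (n = 423 sites, which share the same libraries). The plot of replicate 1 against replicate 2 marks the sites nearest to ZNF608, EFNA5 and NR2F1. Their highest values in replicates 1 and 2 were 238 and 301 at ZNF608, 134 and 136 at EFNA5, and 507 and 641 at NR2F1.

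**Figure D1:**
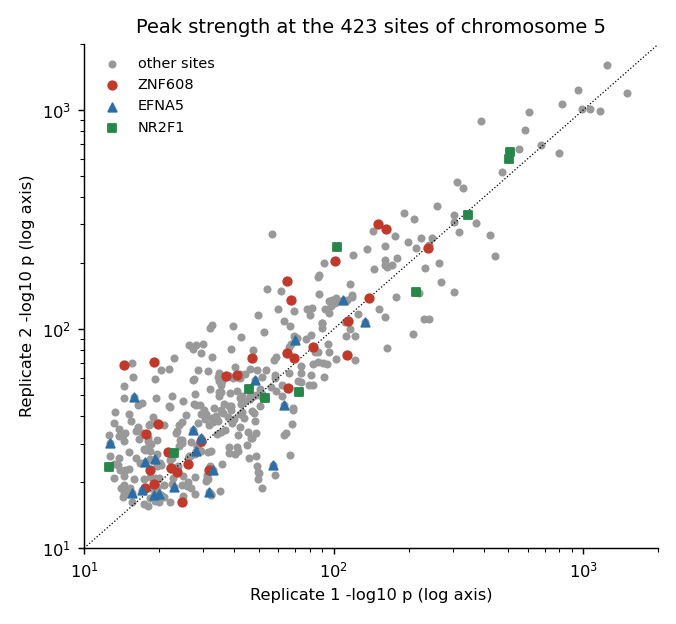
Peak height (−log10 p) of the 423 sites in replicate 1 (x axis) and replicate 2 (y axis), both on log axes, with a dotted line of equality. Sites nearest to ZNF608 (red), EFNA5 (blue) and NR2F1 (green) are marked, and the highest values of all were 1495 in replicate 1 and 1596 in replicate 2.

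The strongest site lay 10.3 kb upstream of RANBP3L, at chr5:36311701-36312984, between protein-coding genes. The peak reached 1248 in replicate 1 and 1596 in replicate 2 on the −log10 p scale, with fold enrichments of 82.1 and 177. The next lay 4.94 kb upstream of FBXL7, which encodes a substrate-recognition subunit of SCF ubiquitin ligases, with −log10 p of 1495 and 1199 and 3 TGACAG words in its 500 bp. It was the only one of the 10 within 5 kb of a canonical TSS. The third, with −log10 p of 1063 and 1012, had SLF1, a factor of the SMC5/6 DNA repair complex, as its nearest gene at 266 kb, but lay in intron 12 of MCTP1. The site in intron 1 of ITGA2, the collagen-binding integrin subunit α2, had 1166 and 987.

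Both an axon guidance gene and a kinase gene were among the next. The site in intron 1 of SEMA5A, a transmembrane semaphorin, had −log10 p of 984 and 1012, and 4 TGACAG words. The site in intron 8 of FAM172A had 952 and 1232, and the nearest canonical TSS was that of the POU-domain gene POU5F2 at 80.4 kb. The site 388 kb downstream of the TSS of PLK2, a polo-like kinase, had 822 and 1060, and lay between genes. The site 324 kb downstream of the canonical TSS of TMEM232 held the composite word and had 679 and 690. It lay within the annotated TMEM232 gene but outside canonical protein-coding transcripts. The last of the 10 lay in intron 2 of RAI14, a gene for an actin-associated ankyrin repeat protein (800 and 639), and 150 kb upstream of the adenylyl cyclase gene ADCY2 (608 and 977). Of the 10 sites, 8 had a TGACAG within 50 bp of the summit and 5 lay in introns of canonical transcripts. Beyond 100 kb from the nearest canonical TSS were 4, and 6 were higher in replicate 2. Over all 423 sites, 35.9% had a TGACAG within 50 bp and 35.9% lay in such introns. Beyond 100 kb were 59.6%, and 274 of the 423 were higher in replicate 2. At the 10 sites no value of replicate 1 fell below 608 and none of replicate 2 below 639, far above the medians of all 423 sites.

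At the other end of the list, the weakest sites on the chromosome lay 838 kb from NUDT12, a nudix hydrolase gene (12.6 in replicate 1 and 32.8 in replicate 2), 895 kb upstream of NR2F1 (12.6 and 23.5), and 152 kb from GOLPH3, a Golgi phosphoprotein gene (12.7 and 26.2). Of the peaks outside the list, the strongest in both replicates had −log10 p of 202 and 208 and lay 221 kb from TSSK1B, a testis kinase gene. It was followed in replicate 1 by peaks at DTWD2 (42.3, with 59.7 in replicate 2) and SPOCK1 (41.9, with 15.4), and in replicate 2 by those at DTWD2 and ZNF608 (59.6, with 39.7 in replicate 1). The values inside and outside the list therefore overlapped: peak height alone did not separate them.

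In number of sites chromosome 5 came second of the 22 autosomes, after chromosome 2 with 484. In sites per Mb of known sequence it also came second, with 2.38, while the other autosomes ranged from 1.2 on chromosome 19 to 2.43 on chromosome 13, with a median of 1.76. That was 1.28 times the density of the other autosomes combined. Protein-coding genes were sparse on chromosome 5, at 4.97 per Mb against a median of 6.65, and 4 of the other autosomes had fewer per Mb, as the plot of sites against genes shows. The median −log10 p of its sites, 33.7, was the highest of the autosomes beside that of chromosome 8, and the pooled median of the others was 28.9. Of the 100 strongest sites of the list, 14 lay on chromosome 5. These figures come from the values that chose the sites, and none was tested.

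**Figure D2:**
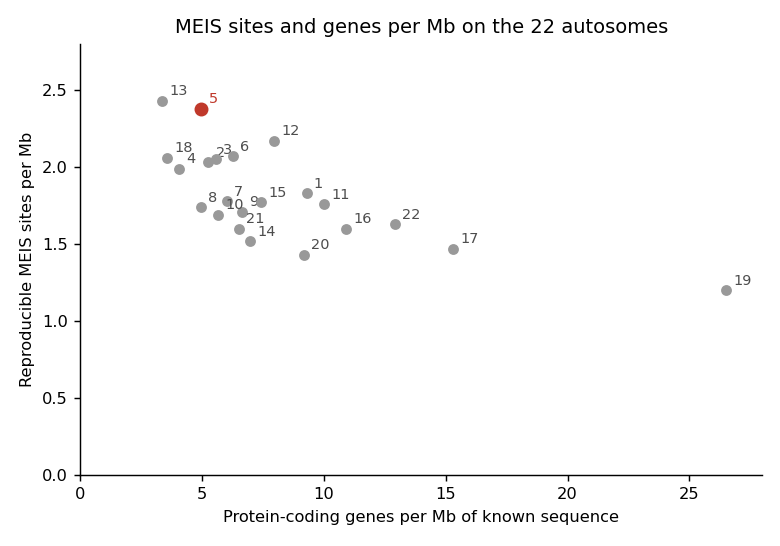
Reproducible MEIS sites per Mb of known sequence (y axis) against protein-coding genes per Mb (x axis) for the 22 autosomes, each labelled by its number. Chromosome 5 (red) had 2.38 sites per Mb with 4.97 genes per Mb, and chromosome 19 had fewest sites per Mb (1.2) with most genes (26.5).

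A larger share of the replicate peaks on chromosome 5 entered the list than on any other autosome. In replicate 1, 424 of 2522 peaks on chromosome 5 were in the list (16.8%), where the share was 14.1% over all chromosomes and 9.25 to 16.7% on the other autosomes. In replicate 2 it was 425 of 3298 (12.9%), where the share was 10.9% over all chromosomes and 8.01 to 12.2% on the other autosomes. The peaks outside the list, 2098 and 2873, were much lower, with median −log10 p of 4.24 and 4.35 and median fold enrichments of 2.34 and 3.03, and were narrower, with median widths of 545 and 523 bp. Of them, 41.9% in replicate 1 and 30.5% in replicate 2 overlapped a peak of the other replicate. Their density, 11.8 and 16.2 per Mb, ranked 5 and 7 among the 22 autosomes, below the rank of 2 of the sites.

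The chromosome was divided into 37 bins of 5 Mb to see where the sites gathered. Every bin held at least 1 site. The bin from 120 to 125 Mb held 40 sites (9.46% of the 423), that from 105 to 110 Mb held 31 (7.33%) and that from 90 to 95 Mb held 29 (6.86%). The bins from 30 to 35 Mb and from 95 to 100 Mb tied for the fourth place with 21 each. The 4 fullest bins held 121 sites, 28.6% of all. At an irreproducible discovery rate (IDR) of 0.001 or less, which 280 of the 423 sites met, the fullest bin held 25. The long arm from 90 to 125 Mb, which is 19.7% of the known bases and has 10.1% of the genes (89), held 149 sites (35.2%). The same stretch held 24.6% and 25.9% of the peaks outside the list in replicates 1 and 2.

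The 5 bins with 50 or more protein-coding genes held between 3 and 14 sites. The bin from 130 to 135 Mb, with 58 protein-coding genes, held 3 sites, none with a value kept above 15.5 on the −log10 p scale. The bin from 175 to 180 Mb, with 74 genes, also held 3 sites. The bin from 135 to 140 Mb, with 57 genes, held 9, and the bin from 145 to 150 Mb, with 50 genes, held 13. The bin from 140 to 145 Mb, which has the clustered protocadherin genes and most genes of all (84), held 14, and the bin of EFNA5, with 31 sites, had 5 genes. Across the 37 bins, the Spearman coefficient of sites with genes was −0.190, and with the peaks outside the list it was 0.676 in replicate 1 and 0.718 in replicate 2 (bins share libraries and base composition, and the numbers are a description).

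The share of replicate peaks that entered the list was also counted per bin, as a description, since the fullest bins were picked for their number of sites. In the bin of ZNF608, 31.3% of the replicate 1 peaks and 24.4% of the replicate 2 peaks were in the list. The shares were 27.2 and 20.4% in the bin of EFNA5 and 26.6 and 17.4% in that of NR2F1, against 16.8 and 12.9% over the chromosome. Some bins with fewer sites had shares as high, among them that from 5 to 10 Mb with 27.5% in replicate 1, and those from 80 to 85 Mb (20%), 30 to 35 Mb (18.8%) and 155 to 160 Mb (18.2%) in replicate 2. When each replicate was used alone, with as many of its strongest peaks as the list has sites, the ZNF608 bin held 44 peaks in replicate 1 and 40 in replicate 2, and the bin counts of the replicates had a Spearman coefficient of 0.932 over the 37 bins. The plot of sites against other peaks marks the 5 bins with 20 or more sites, which lie above the rest by that definition. The bins of ZNF608, EFNA5 and NR2F1 also had many peaks outside the list. They had 90, 83 and 80 in replicate 1, and 127, 121 and 142 in replicate 2. The bin from 140 to 145 Mb, with 14 sites, had 88 and 117.

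**Figure D3:**
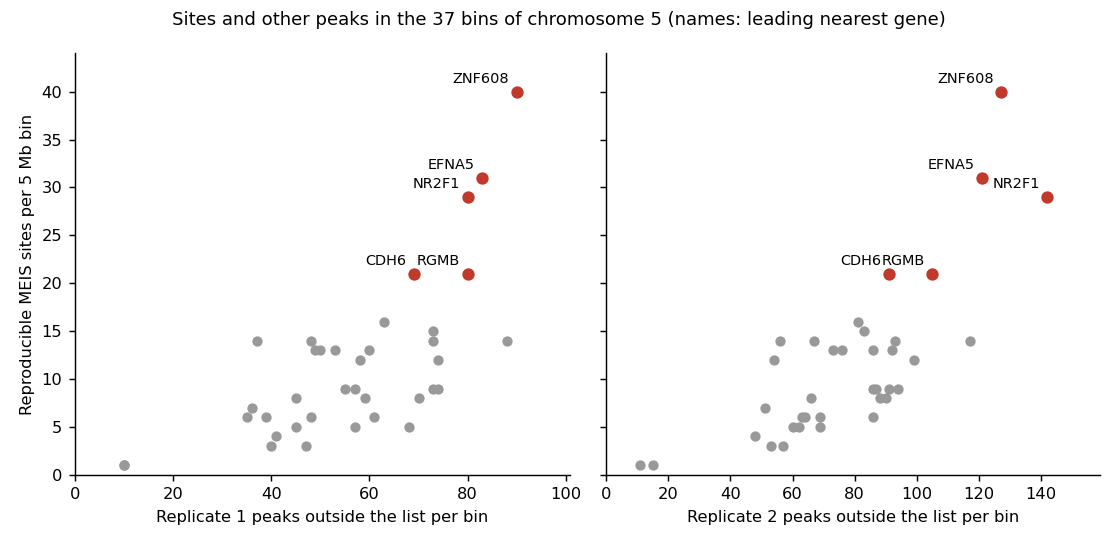
Reproducible sites (y axis) against the peaks outside the list (x axis; replicate 1 left, replicate 2 right) in the 37 bins of 5 Mb of chromosome 5. The 5 bins with 20 or more sites are red and named by the gene nearest to most of their sites, and the ZNF608 bin had 40 sites with 90 and 127 other peaks.

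The typical bin of chromosome 5 was no fuller than that of other autosomes. Among bins of which most bases are known, the median was 9 sites both in the 35 bins of chromosome 5 and in the 503 of other autosomes. The difference lay in the fullest bins: 5 of 35 (14.3%) held 20 or more sites on chromosome 5 and 20 of 503 (3.98%) elsewhere. The ZNF608 and EFNA5 bins ranked first and second of all, ahead of the bin of NR2F2 on chromosome 15 with 30, and the NR2F1 bin had rank 5. NR2F2 encodes the closest relative of the NR2F1 protein. Without the ZNF608 bin and its length, chromosome 5 held 7.47% of the sites, at 1.2 times the density of the other autosomes.

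Each site was assigned to the protein-coding gene with the nearest canonical TSS. The 423 sites had 169 nearest genes, of which 86 had 1 site. The 27 genes with 4 or more sites (3.05% of the 884 protein-coding genes of the chromosome, against 1.48% of genes over all autosomes) were nearest to 203 sites, 48.0% of all. This way of assigning gives more sites to genes with long bodies or distant neighbours.

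ZNF608 (ENSG00000168916, minus strand, chr5:123972606-124084500) had more sites than any other autosomal gene. Its 30 sites spread over 1299 kb, 18 upstream of the TSS to 803 kb and 12 downstream to 494 kb, and 4 lay in the gene. In replicate 1 their −log10 p ranged from 14.4 to 238 with a median of 39.0, and in replicate 2 from 16.2 to 301 with a median of 65.3. A site in intron 1, 0.625 kb from the TSS, had 139 in each replicate. The site in intron 3 shown above had 238 and 234, and the one 164 kb downstream of the TSS had 151 and 301. TGACAG was present in 16 of the 30. None of the sites ranked above 28th in height on the chromosome, so this gene led by number and not by height. It was also nearest to 48 replicate 1 peaks outside the list, and CSNK1G3, a casein kinase gene, had 6 sites within the same bin, with −log10 p of up to 161 in replicate 1.

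EFNA5 (ENSG00000184349, minus strand, chr5:106712595-107006638) had 20 sites, as many as ADGRL2 on chromosome 1, and among autosomal genes only ZNF608 and NR2F2 (26) had more. Of these, 13 lay in the gene, nearly all of them in its first intron, 19 were downstream of the TSS and 1 was upstream. The values were modest, from 12.7 to 134 in replicate 1 (median 27.7) and from 17.5 to 136 in replicate 2 (median 26.5). The strongest lay 9.31 kb into the gene, with 109 and 136. TGACAG was present in 10 of the 20 sites, where the share of all 423 sites was 55.6%. The composite word was present in 3, the highest count at a gene of the chromosome, where 6.62% of all sites had it. H3Y1 and GPR151, with fewer sites, each had it in 2 of 3. In the EFNA5 bin were also 5 sites of MAN2A1, a mannosidase gene of glycan processing, and sites of TMEM232.

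NR2F1 (ENSG00000175745, plus strand, chr5:92918928-92930317) had 10 sites, 9 of them upstream to 1022 kb. The exception lay 16.4 kb downstream of the TSS, beyond the end of the gene, and was the strongest, with 507 and 641. A site 604 kb upstream had 505 and 598, and a site 0.147 kb upstream of the TSS had 53.2 and 48.2. Over the 10 sites the median was 87.7 in replicate 1 and 101 in replicate 2, higher than at ZNF608 and EFNA5. The next gene, POU5F2, was nearest to 9 sites, all within introns of FAM172A, over 135 kb, with values up to 952 and 1232. SLF1 had 6 more, up to 275 kb from its TSS. The plot of height against distance shows the sites of ZNF608 on both sides of the TSS, those of EFNA5 mostly in and beyond the gene body, and those of NR2F1 mostly far upstream.

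**Figure D4:**
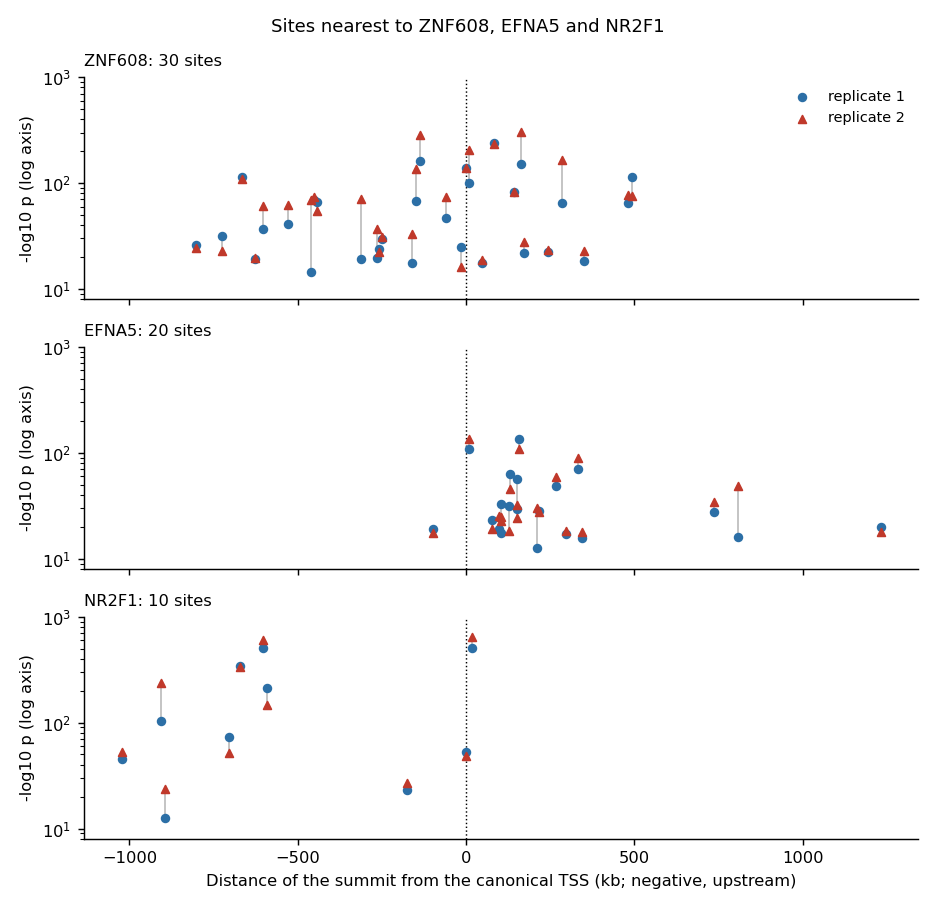
Peak height (−log10 p, log axis) in replicate 1 (blue circles) and replicate 2 (red triangles) against distance of the summit from the canonical TSS (kb, negative upstream) for the 30 sites of ZNF608, the 20 of EFNA5 and the 10 of NR2F1. Grey lines join the replicates of a site, and the NR2F1 sites reached 507 and 641 while none of the EFNA5 sites exceeded 136.

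Of the genes that follow in number of sites, EBF1, a helix-loop-helix factor of B cells and striatal neurons, had 9 sites, 8 of them in the gene, and its strongest, in intron 6, had 586 and 806. RGMB, a repulsive guidance molecule and BMP co-receptor, had 8, all upstream, up to 209 in replicate 1. CDH6, a type II cadherin, also had 8, all upstream within 688 kb, with a strongest of 122 and 93.1. TENM2, a teneurin of synaptic adhesion, had 8 nearest sites and 10 in its long body, none above 73.6 in either replicate. SEMA5A, ENC1 (an actin-binding kelch protein of neural tissue) and CDH9 had 7 each. TGACAG was present in all 7 sites of SEMA5A, and in 55.6% of all 423 sites. At the other genes of this group it was present in 4 of 9 (EBF1), 5 of 8 (RGMB) and 3 of 8 (CDH6 and TENM2, each). ENC1 had it in 4 of 7 and CDH9 in 3 of 7.

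Runs of neighbouring sites were frequent. With another site within 100 kb were 251 of the 423 (59.3%), and 172 stood alone. The other autosomes ranged from 31.3 to 61.2% by this measure, so that chromosome 5 had rank 3. There were 9 runs of 5 or more, with 80 sites (18.9%). The longest had 19 sites over 666 kb at ZNF608, followed by 16 over 338 kb at EFNA5, 9 over 135 kb in FAM172A, a further 9 over 362 kb upstream of ZNF608, and 7 over 193 kb in EBF1. A run of 5 at the integrin genes ITGA1 and ITGA2 included the ITGA2 site with 1166 and 987.

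Lists of genes by role were counted by whether any site had the gene as its nearest or lay in its body. Of all 884 protein-coding genes on the chromosome, 20.8% had such a site. Among the listed transcription factors it was 8 of 19: NR2F1, EBF1, MEF2C, IRX1, IRX2, IRX4, ISL1 and NR3C1. The list was not limited to factors specific to neural tissue, so the count is not a rate for neural factors. MEF2C, a MADS-box factor of neurons and muscle, had 5 sites, the strongest 217 kb from the TSS with 302 and 333. The Iroquois homeobox genes IRX1, IRX2 and IRX4 form a cluster and had 4, 1 and 2 sites, with the strongest, 324 kb upstream of IRX4, at 423 and 270. The site nearest to ISL1, a LIM homeobox factor of motor neurons, with the highest value had 191 and 339 but was 695 kb away. PITX1, OTP, NEUROG1 and FOXD1 were among the 11 without a site, as were HAND1, NKX2-5 and SOX30.

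Among the listed cadherins and protocadherins, with the catenin gene CTNND2, it was 7 of 10. Of the clustered protocadherin genes the list held only PCDHAC2 and PCDHGC5, so the count does not describe that family. CDH12 had a site in its body with 163 and 192, and CDH10 had 3, the strongest 436 kb away with 66.9 and 103. Among axon guidance and adhesion genes it was 4 of 8: SEMA5A, SEMA6A, EFNA5 and TENM2. SEMA6A had 6 sites, the strongest with 111 and 108. SLIT3, a ligand of Robo receptors, had none. Among growth factor and signalling genes it was 6 of 13. Of these the cytokine receptor gene LIFR shared its site, with 241 and 111, with the body of EGFLAM, and no site of FGF1, SPRY4 or FST exceeded 34.9 in either replicate.

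Among radial glia and matrix genes it was 4 of 8. VCAN, the proteoglycan versican, had a site 3.89 kb upstream with 223 and 261, and another 0.548 kb upstream with 26.1 and 25.8. SLC1A3, the glial glutamate transporter, had only weaker shared peaks outside the list. Among neurotransmitter receptor genes it was 3 of 13, close to the share of all genes, with GRIA1 (172 and 197), GABRB2 (118 and 140) and GLRA1 (18.3 and 16.9). Among ribosomal protein genes, a housekeeping class, it was 1 of 4, RPS23. The lists were too short for a comparison with the share of all genes, and their members differ in length and in distance to neighbours.

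Most of the sites lay far from promoters and outside protein-coding genes. Outside the canonical transcripts of these genes were 266 (62.9%), in their introns 152 (35.9%) and in their exons 5. Counted by the whole annotated gene body, 173 (40.9%) lay in a protein-coding gene. The median distance to the nearest canonical TSS was 151 kb, where it was 97.2 kb on the other autosomes, and 60 sites were beyond 500 kb and 12 beyond 1 Mb. The furthest, 1643 kb upstream of its nearest gene, was assigned to TENM2. Upstream of the TSS of their gene were 196 sites and downstream 227. Within 1 kb of a canonical TSS were 9 sites, at ZNF608, SSBP2, LIX1, NR2F1, CREBRF, ARHGEF37, VCAN, MAML1 and TAF7. The SSBP2 site, 0.0150 kb from the TSS, was the strongest of these in replicate 1, with 164, and had 81.6 in replicate 2. In replicate 2, and by the lower replicate value, the ZNF608 site was the strongest of them, with 139 in each replicate. MAML1, a coactivator of Notch signalling, had 31.2 and 21.5, and TAF7, a subunit of the general factor TFIID, 32.3 and 17.7.

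Position was compared with the 4652 sites of the other autosomes by two-sided Fisher's exact tests, with p-values adjusted over 7 tests by the Benjamini-Hochberg method. Sites are not replicates, so the p-values describe these libraries. Within 5 kb of the TSS of any annotated transcript were 98 sites, 23.2% (95% Wilson interval 19.4 to 27.4), against 29.8% on the other autosomes, an odds ratio of 0.709 (0.555 to 0.90, adjusted exact p = 0.00858). In the body of a protein-coding gene were 173, 40.9% (36.3 to 45.6), against 52.1%, an odds ratio of 0.636 (0.516 to 0.781, adjusted exact p = 8.23e-05). Beyond 100 kb from the nearest canonical TSS were 252, 59.6% (54.8 to 64.1), against 49.2%, an odds ratio of 1.52 (1.23 to 1.87, adjusted exact p = 0.000165). The sites of chromosome 5 were thus further from genes than the pooled sites of the other autosomes. When each nearest gene entered with its strongest site alone, none of the 3 differences passed the threshold, with odds ratios of 0.751, 0.717 and 1.08 (adjusted exact p = 0.379, 0.259 and 0.726). The difference in gene bodies was also lost when non-coding genes were counted, with an odds ratio of 0.890 (adjusted exact p = 0.386), and that within 5 kb of a TSS at an IDR of 0.001 or less, with 0.779 (adjusted exact p = 0.162).

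The chromosome itself and the weaker peaks on it moved the same way. Of its bases 22.4% lay within 5 kb of an annotated TSS, where the other autosomes had 18.6 to 56.8% with a median of 28.8%. Of the peaks outside the list, 31.5% in replicate 1 and 26.6% in replicate 2 were within 5 kb of a TSS on chromosome 5, and 36.9 and 33.8% on the other autosomes. In gene bodies were 44.6 and 43.2% on chromosome 5, and 52.9 and 51.3% elsewhere. Beyond 100 kb were 48.7 and 52.3%, and 39.0 and 41.8% elsewhere. On 3 counts chromosome 5 was next to a single other autosome: chromosome 13 had lower shares within 5 kb (22%) and in gene bodies (37.1%), and chromosome 18 a higher share beyond 100 kb (61.7%). The part of gene density in the differences of the sites was not tested.

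The MEIS core TGACAG, searched on both strands in the 500 bp around each summit, was present in 235 of the 423 sites. That was 55.6% (50.8 to 60.2), against 26.9% of 344674 windows of the same length tiled over chromosome 5 without a peak. Of the sites, 156 had 1 core, 79 had 2 or more and 188 had none. Of the 345 occurrences 171 (49.6%) lay within 50 bp of a summit (95% Wilson interval 44.3 to 54.8), against 55.5% (53.9 to 57.0) on the other autosomes, a difference that was not tested. These intervals treat occurrences as independent, although some share a site. Counted by site, 152 of the 423 (35.9%, 31.5 to 40.6) had a core within 50 bp of the summit. The plot of core positions has its highest column at the summit. The cores were present in sites of all heights, with a median −log10 p of 35.8 in sites with a core and 31.9 in those without.

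**Figure D5:**
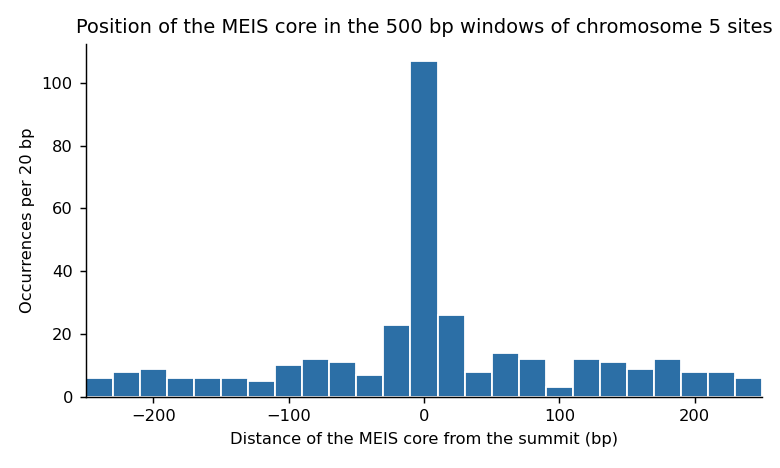
Number of occurrences of the MEIS core per 20 bp (y axis) by distance from the summit in bp (x axis) in the 500 bp windows of the 423 sites, both strands. Of the 345 occurrences, 171 lay within 50 bp of the summit.

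On the other autosomes the core was present in 58.6% of sites, an odds ratio of 0.883 for chromosome 5 (0.719 to 1.09, adjusted exact p = 0.331), and no difference in this share was detectable. Peaks in the list did differ from those outside it on chromosome 5. In replicate 1 the core was present in 55.4% of peaks in the list and 42.0% outside, an odds ratio of 1.72 (1.38 to 2.13, adjusted exact p = 8.79e-07 in Fisher's exact test over 2 replicates). In replicate 2 the shares were 55.3 and 44.1%, an odds ratio of 1.57 (1.27 to 1.94, adjusted exact p = 1.8e-05). When the comparison was limited to outside peaks of −log10 p 5 or more, the odds ratios fell to 1.28 and 1.24 and no longer passed the threshold (adjusted exact p = 0.0621 for both).

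The composite word, TGATTGACAG or TGAGTGACAG, which contains the core, was present in 28 sites near 24 genes. That was 6.62% (4.62 to 9.40), against 0.406% of the tiled windows, 1.81% of the replicate 1 peaks and 1.78% of the replicate 2 peaks outside the list on chromosome 5. On the other autosomes it was 4.84%, with an odds ratio of 1.39 for chromosome 5 (0.894 to 2.10, adjusted exact p = 0.224), a range that includes no difference. In 25 of the 28 a core lay within 50 bp of the summit. Their median −log10 p was 46.9 (14.7 to 679), and that of the other sites 33.2. The highest were at TMEM232 (679 and 690), IRX4 (423 and 270), SPOCK1 (247 and 260), ARRDC3 (264 and 201) and SLF1 (161 and 195), 250 to 324 kb from the TSS of these genes. SPOCK1 encodes the brain proteoglycan testican-1 and ARRDC3 an arrestin-domain protein. EFNA5 had 3 composite sites, with replicate 2 values of 108, 31.9 and 17.7, the last 1231 kb from its TSS. Only TAF7 had one within 1 kb of its TSS.

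Words bound by other factors of neural stem cells were counted in the same windows. GGAATG, the core of TEAD factors of the Hippo pathway, was present in 157 sites (37.1%), in 24.5% of the tiled windows, and in 35.1 and 32.3% of the peaks outside the list in replicates 1 and 2. ACAAAG or ACAATG, bound by SOX factors, was present in 307 (72.6%), in 55.6% of the tiled windows, and in 61.6 and 62.4% of the peaks outside the list. The median GC content was 41.4% in the sites and 38.8% in the tiled windows. Neither word differed detectably from the other autosomes, where the shares were 38.1 and 70.8%, with odds ratios of 0.958 (0.775 to 1.18, adjusted exact p = 0.714) and 1.09 (0.870 to 1.38, adjusted exact p = 0.545). A word in a window is a match of letters and not a bound site.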

How the data were processed

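MEIS ChIP and Input of hNSC (2 replicates each) were sequenced as 36 bp read pairs. The authors trimmed adapters with cutadapt (v1.16), mapped to GRCh37 with Bowtie2 (v2.3.0), kept a mapping quality of at least 30 (SAMtools v1.2), removed duplicates with Picard (v2.15.0), called peaks per replicate against Input with MACS2 (version not stated) at a p-value of 0.01, and derived the reproducible sites with IDR (v2.0.3). The deposited peak lists hold −log10 p-values and −log10 q-values, fold enrichment as a ratio, a peak score and a summit offset. The deposited site list holds an IDR score, −log10 IDR values and 8 columns per replicate that were not used, since replicate values were read from the replicates' own lists. Input has no values of its own here, and depth is unknown.

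A replicate peak was counted as in the list when it overlapped a site. Genes, canonical TSS and transcripts were those of GENCODE 44 on GRCh37. For 7 protein-coding genes without a canonical transcript, the 5′ end of the gene was used. Shares were compared by two-sided Fisher's exact tests (SciPy 1.17.1, pandas 2.3.3, NumPy 2.4.6, Python 3.11.15, pysam 0.24.0), with Wilson intervals of 95%, which cover counting error only, and adjustment over 7 tests at 0.05; the scripts were tested on simulated data. No test of conditions was possible with a single kind of ChIP sample. Named were the 10 strongest sites, up to 3 leading genes of the 4 fullest bins, up to 12 genes with 4 or more sites, members with a site of 7 gene lists, the sites at the threshold and those with the composite word; the other genes named were chosen after their values were seen. Members and lists were chosen with earlier results of these data known. Alternatives covered the IDR threshold, single replicates, windows, distances, gene models and bins.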

Additional observations from a re-analysis of the deposited data

How the results depend on the processing

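Under 82 alternatives, 50 values stayed on the same side of the threshold in the same direction, moved by less than the spread between the replicates or, for counts, stayed within 1.5 times. At an IDR of 0.001 or less, chromosome 5 held 8.96% of the sites at 1.41 times the density of other autosomes, the fullest bin held 25 sites, the 4 fullest 27.9%, 1 bin was empty, 20 genes had 4 or more sites and 50% of sites had a neighbour within 100 kb; the odds ratio within 5 kb of a TSS was 0.779, no longer past the threshold, and those of TGACAG (1.03) and SOX (0.926) changed direction without passing it in either case. With either replicate left out, the chromosome's share was 8.24 to 8.36%, the density ratio 1.29 to 1.31, the share of the 4 fullest bins 27.8 to 28.4%, empty bins 0 to 1, the fullest bin 40 to 44, genes with 4 or more sites 31 to 34 (from 27) and sites with a neighbour 60 to 60.1%; the odds ratio of TEAD ranged from 0.941 to 1.09 (above 1 without replicate 2) and that of SOX from 0.978 to 1.13 (below 1 without replicate 1). With whole chromosome lengths the density ratio was 1.36. Bins shifted by 2.5 Mb gave 29.6% in the 4 fullest and 51 sites in the fullest. Neighbours within 50 kb and 200 kb were found for 43.3% and 76.4%. With fold enrichment the replicates had a Spearman coefficient of 0.753. With bodies of all genes the odds ratio was 0.890, and against outside peaks of −log10 p 5 or more those of TGACAG were 1.28 and 1.24, none past the threshold. Some alternatives were chosen after seeing the data. With the strongest site of each nearest gene, which leaves fewer sites, the odds ratios were 0.751 within 5 kb of a TSS, 0.717 in gene bodies and 1.08 beyond 100 kb, none past the threshold, and that of TGACAG was 1.11, in the other direction. Without the fullest bin, the share was 7.47%, the density ratio 1.2 and sites with a neighbour 56.1%. The causes were not tested. No paired analysis was possible because Input enters the peak lists only as background and has no column there. The width of the intervals, set by the 423 sites, limits what the comparisons could detect.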

Other observations

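Beside the sites, 880 replicate 1 peaks on chromosome 5 outside the list overlapped a replicate 2 peak, with a median −log10 p of 7.17 in replicate 1, and 124 of them were at least as high in replicate 1 as the lowest site. They had 315 nearest genes, of which 182 were nearest to no site. ZNF608, EFNA5 and NR2F1, the genes that led the fullest bins, were nearest to 27, 26 and 25 of these weaker peaks, more than any other gene, followed by TENM2 with 17 and WWC1, a regulator of Hippo signalling, with 14. Within 5 kb of a canonical TSS were 105 (11.9%), where the share of the sites was 4.26%. Genes without a site but with such a weaker shared peak included the transcription factor genes TCF7, EGR1 and NKX2-5, the growth factor gene GDNF, the receptor gene PDGFRB, and SLC1A3, HAPLN1, FBN2 and SPARC of the radial glia and matrix list.

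The peak near TSSK1B, at chr5:112548903-112549939 in replicate 1 and chr5:112548223-112550092 in replicate 2, had −log10 p of 202 and 208 and was not in the list used here, although its value exceeded that of most sites in the list.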
